A study of Homo sapiens with 6 samples.

Results

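The genes described here are 10 receptors and feedback genes of the Wnt pathway: the receptor genes FZD1, FZD2, FZD4, FZD6 and FZD7, the co-receptor gene LRP6, and the feedback genes AXIN2, DKK1, NKD2 and ZNRF3. They were chosen by name, with earlier results of these data known. Each matched 1 row of the 60617 genes in the deposited count table. RNA had been sequenced from A549 cells, a line established from a human lung tumour, as 3 wild-type libraries and 3 libraries of A549 with a knockout of YTHDF1, a reader protein of N6-methyladenosine (m6A) in mRNA. The cells of both groups were grown alike in culture without a stated treatment, and the labels call the libraries of each group biological replicates without saying whether they came from separate clones or cultures. The p-values therefore measure only the spread between these libraries, which may be technical.

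Wnt ligands are secreted, lipid-modified proteins that bind Frizzled receptors together with the co-receptors LRP5 or LRP6. In the canonical branch this holds back a complex that marks beta-catenin for destruction, and beta-catenin then acts with TCF/LEF factors on target genes. Several of those targets encode inhibitors of the pathway and so close a feedback loop. In lung epithelium the pathway is known for its part in development and in the renewal of alveolar cells.

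The promoters of DKK1 and NKD2, the feedback genes that rose, are shown because feedback genes of the pathway are known to be read by TCF/LEF factors. They are RefSeq sequences on build GRCh38.p14, where promoters of 4 of the 10 members were matched (FZD1, FZD4, DKK1 and NKD2). The chromosome of FZD6 was left out of this matching, so no promoter of FZD6 was looked for. Each window is the 250 bases before the annotated start, read 5′ to 3′ on the gene's strand. The DKK1 window lies at chr10:52314031-52314280 on the plus strand and the NKD2 window at chr5:1008552-1008801 on the plus strand. Capitals mark the TCF/LEF core letters CTTTGA, or TCAAAG where they lie on the other strand, and the TATA box letters TATAAA.
DKK1: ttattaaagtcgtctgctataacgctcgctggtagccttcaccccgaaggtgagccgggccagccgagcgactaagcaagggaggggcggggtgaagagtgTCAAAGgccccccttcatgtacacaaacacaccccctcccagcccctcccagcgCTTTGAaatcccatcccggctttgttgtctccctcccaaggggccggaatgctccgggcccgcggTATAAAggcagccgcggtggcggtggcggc
NKD2: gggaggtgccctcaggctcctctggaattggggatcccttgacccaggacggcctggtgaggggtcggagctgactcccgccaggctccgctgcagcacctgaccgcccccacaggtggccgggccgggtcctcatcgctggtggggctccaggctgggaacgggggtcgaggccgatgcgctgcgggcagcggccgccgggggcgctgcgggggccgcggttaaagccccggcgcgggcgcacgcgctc
The DKK1 window held the core 2 times, starting 149 and 95 bases before the start, and TATAAA 30 bases before it. The windows of FZD1, FZD4 and NKD2 held none of these letters on either strand. Over 35116 promoters of the same length, 11.2% held the core at least 1 time, 0.977% held it at least 2 times and 10.7% held TATAAA, counting both strands. The core and TATAAA do not overlap each other. A match describes the letters only.

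YTHDF1 RNA was lower in every knockout library and was still detected there. Its level was 98, 104 and 96.4 CPM in wild type and 48.6, 48.6 and 47.1 CPM in the knockout, where CPM are the counts of each library scaled to the same total. The log2 fold change, knockout against wild type, was -1.05 for YTHDF1 (SE 0.0526; adjusted p = 7.84e-18, edgeR). Which part of YTHDF1 had been edited was not given in the sources used here. Library totals ran from 27238817 to 40675628 counts, and 3 counts were worth 0.0738 to 0.11 CPM depending on the library. Epithelial genes were present in both groups, with 6 of 6 tested, 4 of them called higher, and a summed level of 3740 to 4134 CPM in wild-type and 4737 to 5036 CPM in knockout libraries. Of 21 markers of fibroblasts, endothelial cells and leukocytes, 12 stayed under 0.5 CPM in all 6 libraries, CD3E, CD3D and MS4A1 had 0 counts, and the summed level was 46.1 to 51.2 CPM in wild-type and 48.5 to 51.2 CPM in knockout libraries. The 8 leukocyte markers alone summed to 11.9 to 12.3 CPM in wild-type and 3.07 to 4.09 CPM in knockout libraries, and the 7 fibroblast markers to 32.5 to 38.1 and 44.4 to 47.6 CPM. Most of the leukocyte sum was CD14, at 11.1 CPM in wild-type and 3.45 CPM in knockout libraries. Of the 8 leukocyte markers 2 were tested, CD14 and CSF1R, and both were called lower. Most of the fibroblast sum was COL1A1, at 29.8 CPM in wild-type and 41.9 CPM in knockout libraries. Of the 5 fibroblast markers tested, COL1A1 and LUM were called higher and COL3A1, PDGFRA and PDGFRB lower, with a median log2 fold change of -1.06. All these marker calls stand beside 27.2% of all genes tested called higher and 26.3% called lower. Mitochondrially encoded mRNAs took 5.76% to 5.92% of the counts in wild-type and 3.72% to 3.98% in knockout libraries, and the part of these shifts in the results below was not tested.

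Of the 10 members, 6 rose, 3 fell and 1 did not pass the test. FZD7 showed the largest rise and FZD6 the largest fall, and which of these receptor genes was more abundant per length differed between the groups. Among the feedback genes NKD2 and DKK1 rose, ZNRF3 fell and AXIN2 did not pass. All 10 members passed the filter on low counts. The test was edgeR's quasi-likelihood test across 18505 genes with Benjamini-Hochberg adjustment and a threshold of 0.05. In that test 53.5% of all genes were called, 27.2% higher and 26.3% lower. The count of 9 in 10 has to be read against this background, in which most genes moved. With a filter of at least 1 CPM in 3 libraries, 9366 of 14626 genes were called, a larger share, and 9 members. The groups did not overlap for 9 of the 10 members (6 higher, 3 lower) and for 58.9% of all genes (29.8% higher, 29.1% lower). Changes of at least 1 on the log2 scale were called for 4 members, FZD7, FZD4 and NKD2 upward and FZD6 downward, and for 12.4% of all genes (7.95% upward, 4.44% downward). The median size of the log2 fold change was 0.76 over the members and 0.36 over all genes tested. The median signed log2 fold change was 0.48 over the members and 0.00 over all genes. Because the members were chosen with earlier results of these data known, their shares and medians beside all genes are no test.

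**Figure D1:**
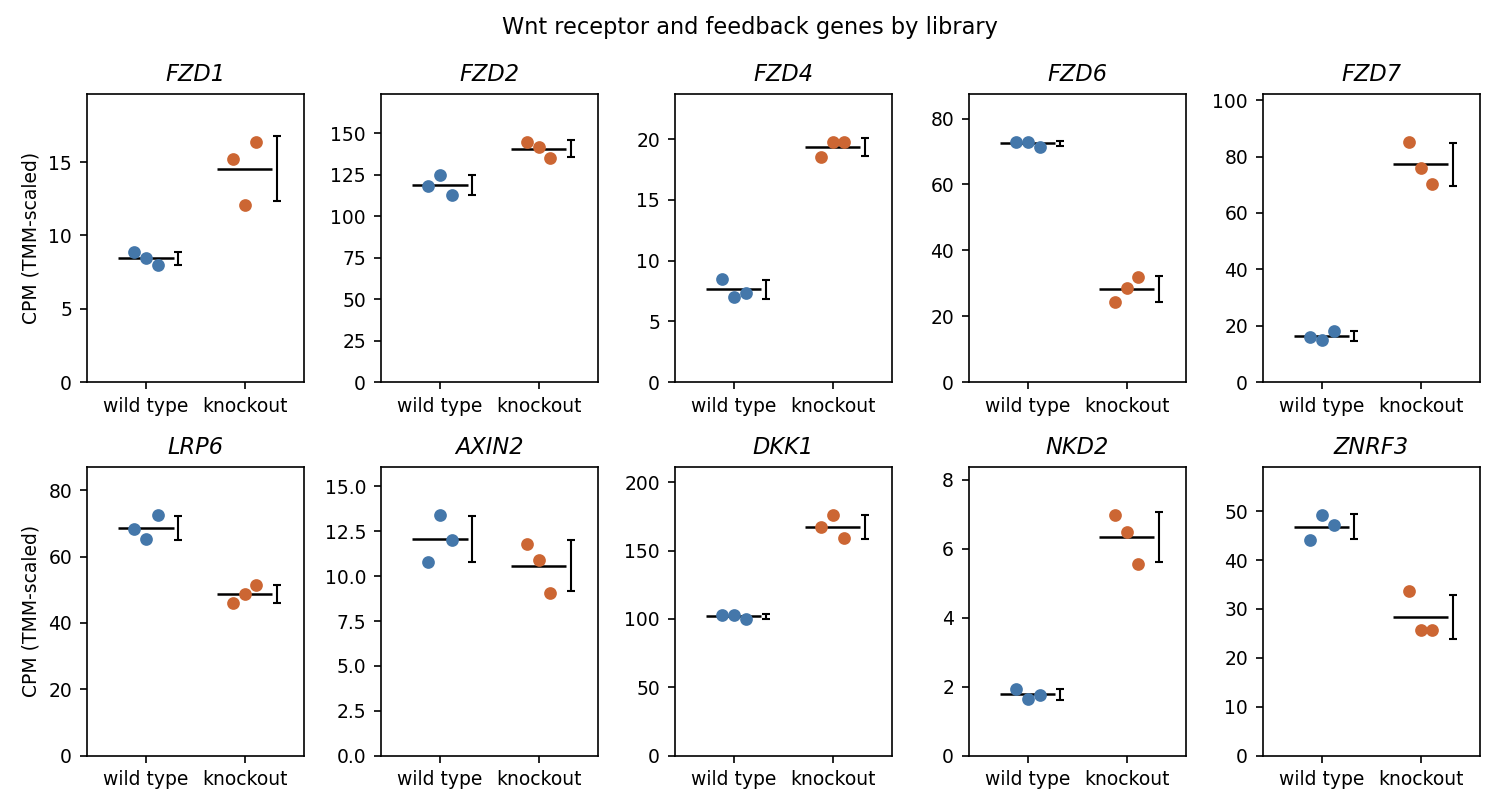
CPM of each of the 10 members (vertical axes from 0, 1 panel per gene) in the 3 wild-type libraries (blue) and the 3 knockout libraries (orange); the line is the mean and the bar beside it is 1 SD. FZD7 stands at 70.4 to 85.3 CPM in the knockout libraries against 15 to 18.3 CPM in wild type, FZD6 moves the other way, and only the AXIN2 panel has groups that overlap.

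FZD7 encodes a Frizzled receptor that is expressed in many epithelial stem and tumour cells. It is a gene of 1 exon on the plus strand of chromosome 2, at 202034587 to 202038445 (GENCODE release 29 on GRCh38, as for all gene coordinates here). FZD7 was measured at 16, 15 and 18.3 CPM in wild type and at 85.3, 76 and 70.4 CPM in the knockout. Each knockout library was well above each wild-type library. FZD7 rose by 2.22 on the log2 scale (SE 0.0757), or 4.66-fold, at an adjusted p of 1.67e-22 (edgeR), and 2.84% of all genes tested had a larger change in either direction. In bulk RNA, for this and every gene below, a change in the number of cells that express a gene and a change in RNA per cell cannot be told apart.

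FZD6 encodes a Frizzled receptor best known from planar cell polarity and often placed outside the canonical branch. The gene lies on the plus strand of chromosome 8, at 103298433 to 103332866. FZD6 was measured at 73, 72.9 and 71.4 CPM in wild type and at 24.2, 28.5 and 32 CPM in the knockout. The wild-type libraries were nearly level, and all knockout libraries lay below them. FZD6 fell by 1.36 on the log2 scale (SE 0.0706), which was 2.56-fold lower, at an adjusted p of 1.99e-17 (edgeR).

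FZD4, a receptor for several Wnt ligands and for Norrin in blood vessels of the retina, lies on the minus strand of chromosome 11, at 86945679 to 86955391. Its level was 8.52, 7.05 and 7.34 CPM in wild type and 18.5, 19.8 and 19.8 CPM in the knockout. The groups were apart, and FZD4 rose by 1.34 on the log2 scale (SE 0.103), or 2.53-fold, at an adjusted p of 4.8e-13 (edgeR). In GENCODE 29, 18.9% of the exonic bases of FZD4 overlap PRSS23, a protease gene on the opposite strand. PRSS23 was far more abundant, at 457 ± 17.9 CPM (SD, n = 3) in wild-type and 802 ± 54.2 CPM (SD, n = 3) in knockout libraries, and it rose by 0.81 on the log2 scale. The library kit marks strand, but the strand setting of the counting was not given in the sources used here, which leaves both the level of FZD4 and its rise uncertain.

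FZD1 and FZD2 encode Frizzled receptors close in sequence to FZD7. FZD1, of 1 exon on the plus strand of chromosome 7, at 91264364 to 91271326, was measured at 8.86, 8.46 and 7.99 CPM in wild-type and at 15.2, 12.1 and 16.4 CPM in knockout libraries. It rose by 0.78 (SE 0.115), or 1.72-fold, and the knockout libraries spread more than the wild-type libraries without reaching them. FZD2, of 1 exon on the plus strand of chromosome 17, at 44557459 to 44559570, was measured at 118, 125 and 113 CPM in wild-type and at 145, 142 and 135 CPM in knockout libraries. FZD2 rose by 0.25 (SE 0.0479), or 1.19-fold, a change that 63.5% of all genes tested exceeded in size. The adjusted p in edgeR's test was 6.02e-07 for FZD1 and 4.76e-05 for FZD2. Stretches shared with transcripts of other genes were short: 0.463% of the 50-base windows of the FZD1 transcript, 2.67% of those of FZD2 and 0.525% of those of FZD7 occur in a transcript of another gene, in each case another Frizzled gene.

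Per length, FZD2 was the most abundant Frizzled gene in both groups, and the gene in the next place changed. Levels between genes are compared here as CPM per kb of exonic length in GENCODE 29. FZD2 stood at 56.3 ± 2.83 in wild-type and 66.7 ± 2.41 CPM per kb in knockout libraries (SD, n = 3). GENCODE 29 lists 2112 exonic bases for FZD2 where RefSeq lists 3779. With the RefSeq length the FZD2 level was 31.4 in wild-type and 37.3 CPM per kb in knockout libraries, still above the other Frizzled genes.

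Second to FZD2 came FZD6 in wild type, at 17.8 ± 0.225 CPM per kb, and FZD7 in the knockout, at 20 ± 1.95 CPM per kb (SD, n = 3). The ratio of FZD7 to FZD6 per length was 0.231, 0.217 and 0.271 in the wild-type libraries and 3.72, 2.81 and 2.32 in the knockout libraries. FZD6 was thus the more abundant of these receptors in every wild-type library and FZD7 in every knockout library. As a share of the summed level of the 10 human Frizzled genes, FZD6 took 19.7% ± 0.387 in wild-type and 6.1% ± 1.09 in knockout libraries, and FZD7 took 4.73% ± 0.609 and 17.5% ± 0.985 (SD, n = 3). FZD2 held 62.2% ± 1.44 and 58.4% ± 0.755 of that sum (SD, n = 3). The sum itself was 88.2 to 93 CPM per kb in wild-type and 110 to 119 CPM per kb in knockout libraries. The sum and all these shares rest on GENCODE 29 lengths, among them that of FZD2. With its RefSeq length (31.4 and 37.3 CPM per kb), the sum and the FZD2 share would be lower in both groups. With only this change, the shares of FZD6 and FZD7 would be higher in both groups. RefSeq also lists a longer FZD7, at 4587 bases against 3859 in GENCODE 29. With that length FZD7 was at 3.59 in wild-type and 16.8 CPM per kb in knockout libraries. Its ratio to FZD6 would be lower in both groups. In the knockout its mean would still exceed the 6.94 CPM per kb of FZD6.

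**Figure D2:**
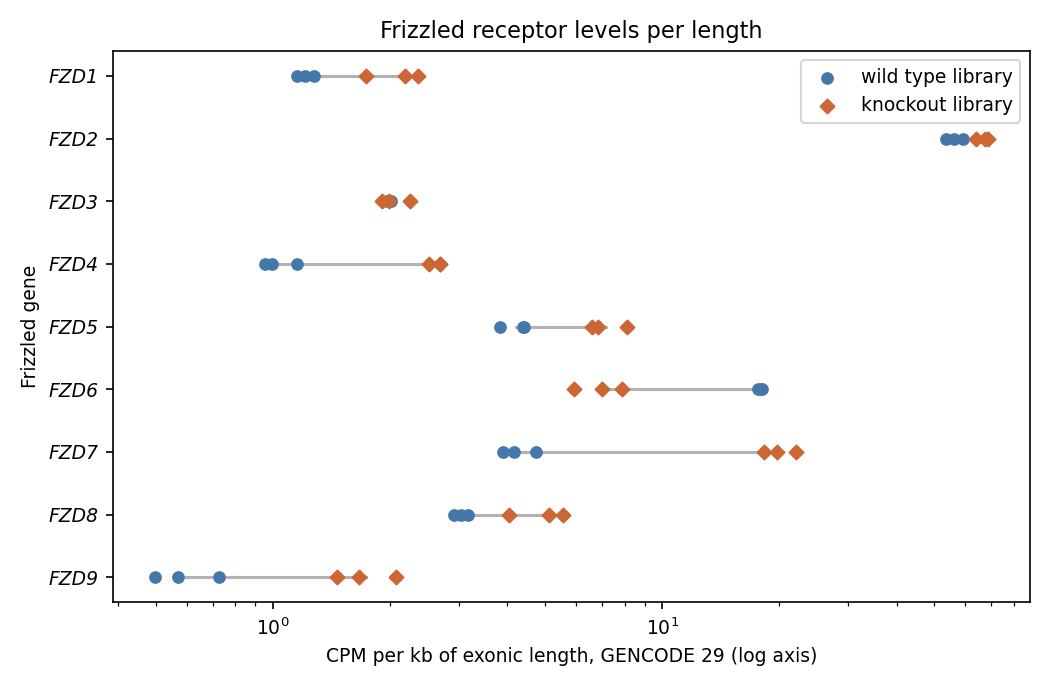
Level of 9 Frizzled genes per length (horizontal log axis, CPM per kb of exonic length) in each wild-type library (blue circles) and each knockout library (orange diamonds); the grey line joins the group means, and FZD10, with 0 counts in all libraries, is not drawn. FZD7 moves from below FZD6 to above it, FZD2 stays highest in both groups, and FZD3 has overlapping groups.

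LRP6, the co-receptor that binds Wnt and Frizzled together, lies on the minus strand of chromosome 12, at 12116025 to 12267012. LRP6 was measured at 68.3, 65.2 and 72.5 CPM in wild type and at 46, 48.8 and 51.3 CPM in the knockout. It fell by 0.49 on the log2 scale (SE 0.0586), which was 1.41-fold lower, at an adjusted p of 9.39e-09 (edgeR) and no overlap between the groups. Its paralog LRP5, a co-receptor of the same kind and not a member, rose by 0.19 from 173 ± 5.76 to 198 ± 7.59 CPM (SD, n = 3). Per length LRP5 exceeded LRP6 4.24-fold in wild-type and 6.85-fold in knockout libraries.

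DKK1 encodes Dickkopf-1, a secreted inhibitor that binds LRP5 and LRP6. The gene lies on the plus strand of chromosome 10, at 52314296 to 52318042 and is the one whose promoter is printed above with the TCF/LEF core. DKK1 was measured at 103, 103 and 100 CPM in wild type and at 167, 176 and 159 CPM in the knockout. The wild-type libraries were nearly level and all knockout libraries lay above them. DKK1 rose by 0.71 on the log2 scale (SE 0.0472), or 1.64-fold, at an adjusted p of 1.12e-14 (edgeR). In GENCODE 29, 9.61% of its exonic bases overlap PRKG1-AS1 on the opposite strand, a gene with 1.14 CPM in wild-type and 1.03 CPM in knockout libraries.

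NKD2 encodes a Naked cuticle protein that binds Dishevelled and dampens the signal inside the cell. The gene lies on the plus strand of chromosome 5, at 1008829 to 1038943 and was the least abundant member in wild type, with 73, 44 and 71 counts there and 225, 264 and 226 counts in the knockout libraries. In CPM, NKD2 stood at 1.93, 1.63 and 1.77 in wild-type and at 6.97, 6.47 and 5.55 in knockout libraries. It rose by 1.82 on the log2 scale (SE 0.181), or 3.53-fold, at an adjusted p of 2.27e-10 (edgeR). The groups were apart in spite of the low counts.

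ZNRF3 encodes a membrane ubiquitin ligase that removes Frizzled receptors from the cell surface and that R-spondins hold back. The gene lies on the plus strand of chromosome 22, at 28883592 to 29057487. ZNRF3 was measured at 44.2, 49.2 and 47.1 CPM in wild type and at 33.6, 25.8 and 25.6 CPM in the knockout. One knockout library was higher than the other two, and all lay below wild type. ZNRF3 fell by 0.73 on the log2 scale (SE 0.08), which was 1.66-fold lower, at an adjusted p of 1.88e-09 (edgeR).

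AXIN2, a scaffold of the destruction complex and a widely used readout of canonical signalling, lies on the minus strand of chromosome 17, at 65528563 to 65561647. AXIN2 was measured at 10.8, 13.4 and 12 CPM in wild type and at 11.8, 10.9 and 9.04 CPM in the knockout. The groups overlapped. The log2 fold change was -0.19 (SE 0.114) with an interval of -0.43 to 0.04 at the 95% level, and the adjusted p in edgeR's test was 0.16. An interval of this width leaves room for a log2 fold change as low as -0.43 and for one no higher than 0.04. In GENCODE 29, 25.2% of the exonic bases of AXIN2 are shared with AC004805.1, a gene of the same strand that had 2 counts in 1 wild-type library and 0 in every other library. How reads in shared bases were assigned was not given in the sources used here, which leaves AXIN2 uncertain.

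Across the 10 members the levels per length spanned a wide range in both groups. In wild type the order from the top was FZD2, DKK1, FZD6, ZNRF3, LRP6, FZD7, AXIN2, FZD1, FZD4 and NKD2, from 56.3 down to 0.616 CPM per kb. ZNRF3 (6.34 to 7.07) and LRP6 (6.3 to 7.02) overlapped there, FZD1 and FZD4 met at 1.15 CPM per kb, and the place of FZD2 above DKK1 did not hold with the RefSeq length. In the knockout the order was DKK1, FZD2, FZD7, FZD6, LRP6, ZNRF3, FZD4, NKD2, FZD1 and AXIN2, from 75.9 down to 2.02 CPM per kb. LRP6 and ZNRF3 overlapped again, and so did NKD2, FZD1 and AXIN2, at 1.92 to 2.41, 1.73 to 2.35 and 1.73 to 2.25 CPM per kb. NKD2 thus left the last place, and FZD7 rose above FZD6, LRP6 and ZNRF3.

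When edgeR's test asked for a change beyond 1.5-fold, 5 members passed, beside 14% of all genes (8.5% higher, 5.47% lower). FZD7, FZD4, DKK1 and NKD2 were higher and FZD6 was lower in it. FZD1, FZD2, LRP6 and ZNRF3 lost their calls, with adjusted p-values of 0.0851, 1, 1 and 0.0726 in that test.

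**Figure D3:**
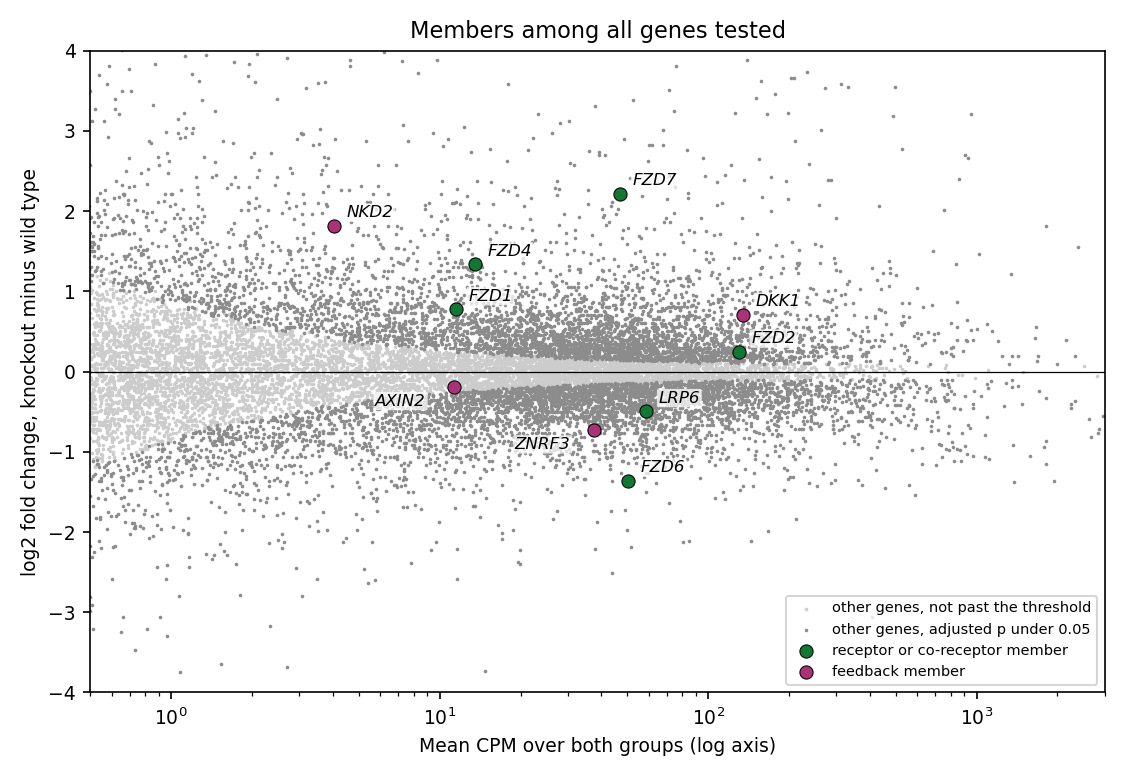
Log2 fold change, knockout minus wild type (vertical axis), against mean CPM over both groups (horizontal log axis) for the genes tested, with receptor and co-receptor members in green and feedback members in purple; 2429 genes fall outside the axes. FZD7, NKD2, FZD4 and FZD6 lie toward the edge of the cloud, FZD2 and AXIN2 lie near 0, and many other genes lie as far out as the members.

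By profile over the 6 libraries, few genes lay close to FZD7 and many lay close to FZD2. Likeness was the distance between 2 genes in log2 CPM, centred on the wild-type mean, over genes averaging 5 CPM or more. Centred in this way, a distance mainly compares the size of the change in the knockout, and more genes have small changes than large ones. Nearness therefore says little beyond a like fold change. The genes nearest to FZD7 were GBP2 at 0.242 and TRIM69 at 0.257, and 1 gene lay within 0.25 of it. NR4A2 (0.146) and one of the rows with the symbol U8 (0.199) were nearest to FZD1, CYTH2 (0.0429) and RAP2B (0.0441) to FZD2, CCL2 (0.112) and IL32 (0.135) to FZD4, and SPC24 (0.169) and KIAA1549L (0.173) to FZD6. For LRP6 these were DICER1 (0.0231) and KPNA3 (0.0502), and for DKK1 they were CSGALNACT1 (0.0558) and PFKFB4 (0.0752). MSX1 (0.162) and RND1 (0.213) lay nearest to NKD2, RAP1GAP (0.145) and ETV4 (0.16) to ZNRF3, and TMEM187 (0.13) and FAM133B (0.131) to AXIN2. Within 0.25 there were 1113 genes for FZD2, 521 for LRP6 and 318 for DKK1, so their nearest genes are 2 among many.

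The rest of the pathway was read from 9 lists of 123 further genes, of which 96 were tested. Of these, 41 rose and 26 fell, which is 67 of 96 beside 53.5% of all genes, and their median log2 fold change was 0.11. With a filter of at least 1 CPM in 3 libraries, 67 genes of the lists were called, beside 9366 of 14626 genes. That is a larger share of all genes than the 53.5%. When a change beyond 1.5-fold was asked for, 13 of the 96 passed, a share close to the 14% of all genes that did. More ligand, secretion and Frizzled genes rose than fell, while the genes of the destruction complex went both ways with small changes. The counts of each list below stand beside 27.2% of all genes called higher and 26.3% called lower. These lists are short, and 5 of the 10 ligand genes tested did not pass.

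Among 19 Wnt ligand genes 10 were tested, 4 rose and 1 fell. WNT7B, the most abundant ligand and one made by lung epithelium, rose by 0.95 from 51.1 ± 7.19 to 98.8 ± 1.35 CPM (SD, n = 3). WNT9A rose by 0.78 and WNT3 by 0.62, and WNT5A, a ligand of the non-canonical branch, fell by 0.37. The other ligand called higher, WNT11, was picked out after its values were seen, and its adjusted p was 0.0499 (edgeR) with overlapping groups. The 3 genes that act on the ligand's lipid or on its release all rose. WLS, the carrier that brings Wnt proteins to the cell surface, rose by 0.37 and the acyltransferase gene PORCN by 0.42. NOTUM, which instead removes the lipid and is also a target gene, rose by 0.91 from a low level of 0.779 CPM.

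Of 12 other receptor genes 10 were tested, 5 rose and 3 fell. FZD5 rose by 0.77 from 28.2 ± 2.22 to 48.1 ± 5.44 CPM (SD, n = 3). LRP4, a relative of LRP6, fell by 0.96 from 54.4 ± 2.85 to 28.1 ± 1.62 CPM (SD, n = 3). PTK7, a co-receptor of planar polarity, fell by 0.81 and the receptor tyrosine kinase gene ROR1 fell by 0.54. Of the other Frizzled genes, chosen after their values were seen, FZD8 rose by 0.69 and FZD9 by 1.52, while FZD3 had a log2 fold change of 0.05 at an adjusted p of 0.626 (edgeR). With the members, 7 of the 9 detected Frizzled genes were called higher, the uncertain FZD4 among them, and FZD6 was called lower, beside 27.2% and 26.3% of all genes. This count includes genes picked after their values were seen.

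R-spondins bind LGR receptors and ZNRF3 or RNF43 and so keep Frizzled at the surface. RSPO3 rose by 0.41 from 135 ± 8.4 to 180 ± 5.53 CPM and LGR4 rose by 0.27 from 223 ± 7.66 to 269 ± 5.35 CPM (SD, n = 3). LGR6 fell by 2.40 from 2.92 to 0.558 CPM. Among 18 other inhibitors 10 were tested, 4 rose and 3 fell. DKK3, a Dickkopf relative, rose by 0.55, NKD1, the paralog of NKD2, by 1.28 from 2.19 ± 0.289 to 5.37 ± 1.31 CPM (SD, n = 3), the DKK1 receptor gene KREMEN1 by 0.35 and the abundant decoy gene SFRP1 by 0.13. TRABD2A, a protease that cuts Wnt, fell by 0.92.

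Of the 18 genes of Dishevelled and the destruction complex, all tested, 6 rose and 6 fell, with a median log2 fold change of -0.01. CTNNB1, which encodes beta-catenin, fell by 0.30 from 326 ± 11.6 to 265 ± 1.94 CPM (SD, n = 3), and the kinase gene GSK3B fell by 0.37. AXIN1, the constitutive relative of AXIN2, rose by 0.47 and the kinase gene CSNK1G1 by 0.55. Of 16 nuclear effector genes 15 were tested, 7 rose and 3 fell. The corepressor gene TLE4 rose by 2.12 from 16.4 ± 1.93 to 71 ± 1.64 CPM (SD, n = 3), TLE5 by 0.33, TLE1 by 0.31 and the coactivator gene BCL9L by 0.19. BCL9, another coactivator, fell by 0.85. Of the other TLE genes, added after their values were seen, TLE3 fell by 0.39 and TLE2 did not pass.

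Of 21 other genes known as beta-catenin/TCF targets 16 were tested, 8 rose and 3 fell, with a median log2 fold change of 0.19. BAMBI, a decoy receptor of the TGF-beta pathway, rose by 0.90, while the transcription factor genes TBX3 and PPARD fell by 0.56 and 0.59 and CD44, a hyaluronan receptor and the most abundant of the list, fell by 0.20. NKD1 and NOTUM, given above, are also on this list. Of 16 planar polarity and non-canonical genes 15 were tested, 5 rose and 6 fell. CELSR1 fell by 0.57 from 177 ± 7.13 to 119 ± 4.64 CPM (SD, n = 3), NFATC2 fell by 1.32, CAMK2D fell by 0.49 and SCRIB fell by 0.17, while VANGL2 rose by 0.63.

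**Figure D4:**
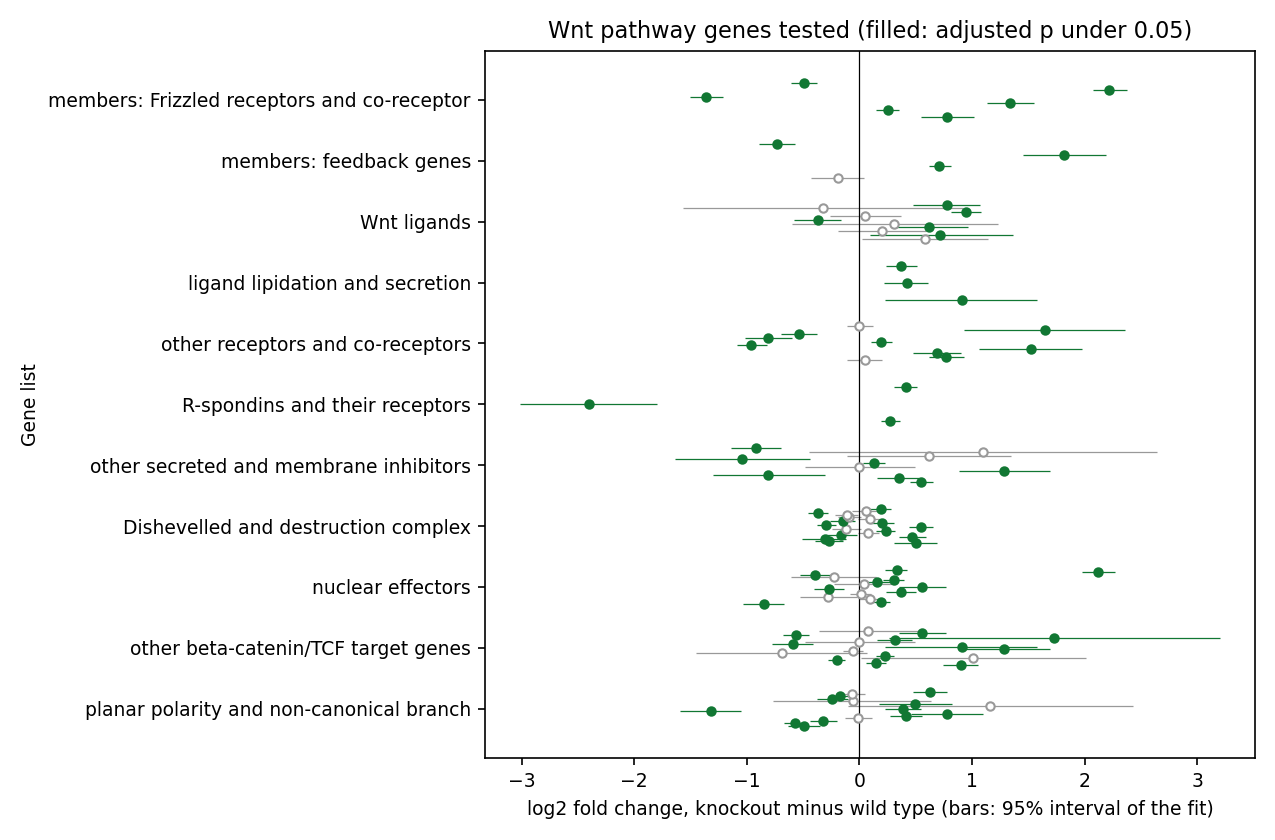
Log2 fold change, knockout minus wild type (horizontal axis), of the tested genes of each Wnt list (vertical axis), with 95% intervals of the fit; filled green points passed the threshold and open grey points did not. The members span -1.36 to 2.22, FZD2 and AXIN2 lie close to 0, and each list with at least 4 tested genes has points on both sides of 0.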

How the data were processed

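Total RNA from cultured A549 cells was made into libraries with a stranded Illumina kit, per the labels' protocols. The authors deposited unnormalised counts for 60617 Ensembl identifiers in 6 libraries. The submitters' processing notes name featureCounts 2.0.1, STAR 2.7.0d, Trim Galore 0.6.6, edgeR 3.32.1 and build GRCh38. Not given in the sources used here are the annotation, the strand setting and how multi-mapped reads were counted.

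Samples were grouped by their titles. edgeR 4.0.16 in R 4.3.3 was run with filterByExpr (18505 genes kept), TMM factors and a two-sided quasi-likelihood test with genotype as the only term, adjusted over all genes tested. CPM use the TMM factors. An SE is the fold change over the root of its F statistic, and 95% intervals use the degrees of freedom of the fit. Exonic lengths and overlaps came from GENCODE 29, symbols for 42000 identifiers from a symbol table and for 868 more from GENCODE 29. The pipeline was tested on simulated data.

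The members, lists and tests were chosen with earlier results of these data known. Genes were named by rule: all members, YTHDF1, from each further list up to 4 called genes with the smallest adjusted p and the most abundant gene, and the 2 genes nearest in profile to each member (log2 CPM, prior count 2). Alternatives were DESeq2 1.42.0, limma-voom (limma 3.58.1), RLE factors, scaling by library size alone, all genes unfiltered, a replicate block, a 1.5-fold minimum in the test, a filter of 1 CPM in 3 libraries and leaving out each library.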

Additional observations from a re-analysis of the deposited data

How the results depend on the processing

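With 13 of the 14 alternatives (all but the 1.5-fold test), 9 members were called, 6 higher and 3 lower, and each of the 10 members kept its direction and its side of the threshold. Leaving out each library in turn, the count of members was 9 each time, the count over all genes ran from 9059 to 9486 (4623 to 4872 higher, 4436 to 4638 lower) and the count over the further Wnt lists from 60 to 66 (35 to 40 higher, 25 to 26 lower). The log2 fold change of FZD7 then ran from 2.15 to 2.31, that of FZD6 from -1.45 to -1.26 and that of AXIN2 from -0.27 to -0.09, the last with adjusted p-values of 0.0712 to 0.594. When the test asked for a change beyond 1.5-fold, the counts were 2585 of all genes (1573 higher, 1012 lower), 5 members (4 higher, 1 lower) and 13 genes of the further lists (7 higher, 6 lower), since that test is stricter by construction. Deviations of same-numbered libraries from their group means had correlations of -0.026, -0.0143 and 0.00785 over all genes tested. Noise in low counts can hide a shared deviation, so these values cannot decide whether the numbers pair the libraries. The labels do not say. With the replicate block 9 members were called, with 9703 of all genes and 64 of the further lists, and for AXIN2 the log2 fold change was -0.20 (adjusted p = 0.159, edgeR). Depth limits NKD2 most, with 44 to 73 counts in wild type.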

Other observations

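Matches to GGACT, a common form of the m6A consensus in DNA letters, were counted in the longest protein-coding transcript of each member. LRP6 held 19 matches, or 1.9 per kb, FZD4 held 10 (1.35 per kb), ZNRF3 held 8 (1.17 per kb) and DKK1 held 2 (1.12 per kb). FZD1 held 6 matches (0.862 per kb), FZD6 held 2 (0.528 per kb), FZD2 held 1 (0.473 per kb), AXIN2 held 2 (0.47 per kb), FZD7 held 1 (0.259 per kb) and NKD2 held 0. The median was 0.695 per kb over the 10 members and 0.936 per kb over 13893 tested genes with such a transcript, and 4 members lay above the latter. Low densities occurred in members that rose strongly (FZD7, NKD2), in the member with the largest fall (FZD6) and in members with little change (FZD2, AXIN2). This describes 10 genes with no test, and letters do not show methylation.

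ROR2, a receptor of WNT5A at low abundance, was picked out once its values had been seen. ROR2 rose by 1.65 on the log2 scale (adjusted p = 0.000166, edgeR) from 0.546 ± 0.123 to 1.7 ± 0.413 CPM (SD, n = 3), while its paralog ROR1 fell.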
